A study of Mus musculus with 6 samples.

Results

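Cytosolic ribosomal protein genes encode the protein subunits of the ribosome that translates nuclear messenger RNAs. They were taken here by symbol: Rpl or Rps followed by a digit, Rpsa, Rplp0, Rplp1 or Rplp2, without symbols containing -ps (pseudogenes) and without the Rps6k kinases. Of 22180 genes with a usable row, 69 were members, 42 with large subunit symbols and 27 with small subunit symbols. Of these, 58 were standard ribosomal proteins of a list of 77, 7 were paralogs of that list, and 4 only match the symbol rule. A further 12 standard proteins had rows only with several symbols and 7 had no named row, and these 19 were not analysed here.

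The study profiled basal cells, the outer layer of the mammary epithelium that holds myoepithelial cells, on 6 whole-transcript arrays. In 3 samples the mice were labelled Trp53-/-, p16ink4a-/- and p19arf-/-, that is, as lacking p53 and both products of the Cdkn2a locus, and the other 3 samples were wild type. All cells came from virgin female mice aged 8 to 14 weeks and were sorted fresh by flow cytometry with CD49f and CD24 among the stains, after depletion of CD45, CD31 and TER119 cells. The source label names 1 mouse per sample. Strain, deletion design and hybridisation batch are not given in the sources used here.

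The ribosome has a small subunit, which decodes the messenger, and a large subunit, which forms peptide bonds. In mammals most ribosomal protein messengers begin with a cytosine and a pyrimidine tract, through which mTOR signalling and Larp1 control their translation. The family also touches both deleted genes: free Rpl5 and Rpl11, bound to 5S ribosomal RNA, block Mdm2 and so stabilise p53, and p19Arf restrains ribosomal RNA processing in the nucleolus.

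Promoter sequences are shown first because the start of these genes is a feature that the symbol rule did not use. RefSeq windows of build GRCm38.p6, from 250 bases before to 50 bases after an annotated start, were found for 54 of 69 members, 63 windows in all. A cytosine followed by at least 5 pyrimidines, beginning within 10 bases of the start on the gene's strand, stood in 29 of these 63 windows (46.0%) and in 19.2% of all 32851 windows. The letters CTTCCG, the core bound by ETS factors, were searched on both strands over the whole window and stood in 57.1% of members' windows and 16.9% of all windows. The GC box GGGCGG stood in 50.8% of members' windows and 35.7% of all windows, the E-box CACGTG in 9.52% and 7.15%, and the YY1 letters AAGATGGC in 4.76% and 2.75%. The sequences below cover 45 bases before and 15 bases after the annotated start, with the pyrimidine tract and CTTCCG or its reverse complement in capitals. They belong to Rpl5 and Rps28, whose knockout and wild type arrays did not overlap, to the bright and steady Rps6, to Rps18 and Rps26, among the most variable, and to the paralogs Rps27 and Rps27l, the second with 2 annotated starts. In Rps18 the CTTCCG next to the start runs directly into the tract. In the first Rps27l sequence the capitals begin at the limit of 10 bases, and the run of pyrimidines extends further upstream.
Rpl5 (chr5:107900483-107900542, plus strand): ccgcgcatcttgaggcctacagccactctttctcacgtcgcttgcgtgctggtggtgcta
Rps28 (chr17:33824548-33824607, minus strand): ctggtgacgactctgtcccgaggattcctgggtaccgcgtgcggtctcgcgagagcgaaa
Rps6 (chr4:86857353-86857412, minus strand): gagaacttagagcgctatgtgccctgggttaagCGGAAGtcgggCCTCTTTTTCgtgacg
Rps18 (chr17:33955651-33955710, minus strand): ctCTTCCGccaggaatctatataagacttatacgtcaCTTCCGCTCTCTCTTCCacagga
Rps26 (chr10:128626492-128626551, minus strand): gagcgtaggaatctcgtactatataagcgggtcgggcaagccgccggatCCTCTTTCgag
Rps27 (chr3:90213634-90213693, minus strand): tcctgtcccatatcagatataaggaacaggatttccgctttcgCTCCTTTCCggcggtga
Rps27l (chr9:66946041-66946100, plus strand): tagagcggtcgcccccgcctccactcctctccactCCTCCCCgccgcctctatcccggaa
Rps27l (chr9:66946368-66946427, plus strand): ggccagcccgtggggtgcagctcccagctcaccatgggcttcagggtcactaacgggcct
These windows follow RefSeq starts, which need not be the starts used in basal cells. Rpl5, Rps28 and the second start of Rps27l held no tract by this definition. No match says only that no such run begins within 10 bases of the annotated start. Rpl5 does hold the pyrimidine run ctctttctc further upstream in the letters shown.

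Across the series the arrays were alike, with medians over all rows between 5.22 and 5.39 on the log2 scale. No gene of the 22180 passed an adjusted p under 0.05 with limma in either direction (0 called, 0% of genes, smallest adjusted p 0.818), while 736 (3.32%) had an unadjusted p under 0.05. With the replicate number as a block this last count was 1112 (5.01%), and without wild type replicate 1 it was 1788, and still no gene passed. The Cdkn2a row read 6.25, 6.31 and 6.39 in knockout cells and 6.42, 5.84 and 6.48 in wild type cells, so that it was not lower in the knockout (log2 fold change 0.07, adjusted p = 1.0, limma) and does not show the labelled loss. The position of its probes against the deleted part is not given in the sources used here. Trp53 was not analysed. Basal markers had mean signals from 6.98 for Oxtr to 13.3 for Krt14, and 5 were higher and 9 lower in the knockout. Krt14 was at 13.3 ± 0.0391 in knockout cells and 13.4 ± 0.122 in wild type cells (SD, n = 3 each). Its knockout arrays all lay below its wild type arrays, with a log2 fold change of -0.12. The means of 14 basal markers lay between 10.15 and 10.58 in knockout cells and between 10.22 and 10.44 in wild type cells. Marker levels of other cell types varied between the arrays. Fibroblast markers were higher for 7 of 7 genes, with list means of 7.10 to 7.27 in knockout cells and 6.38 to 6.73 in wild type cells. Adipocyte markers were higher for 4 of 5, at 6.28 to 6.46 in knockout cells and 5.95 to 6.10 in wild type cells. Most of this adipocyte difference came from Fabp4, with a log2 fold change of 1.31. Retn, Lep, Plin1 and Adipoq had 0.18, 0.14, 0.09 and -0.05. Luminal markers were lower for 14 of 16, at 7.86 to 8.16 in knockout cells and 7.73 to 8.73 in wild type cells. Immune list means lay between 4.73 and 4.86 in knockout cells and between 4.69 and 4.86 in wild type cells, and endothelial list means between 5.33 and 5.48 in knockout cells and between 5.21 and 5.52 in wild type cells. The part of these cells in the results that follow was not tested.

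Differences of ribosomal protein genes between knockout and wild type basal cells were small, and none passed the test. None of the 69 members passed an adjusted p under 0.05 with limma, against a background of 0% of all genes, and none had an unadjusted p under 0.05 in either direction, against 3.32% of all genes (1.61% higher and 1.71% lower). The fold changes of the members ran from -0.38 for Rpl5 to 0.34 for Rps4l on the log2 scale, knockout minus wild type, and 39 of 69 were smaller than 0.1 in size, 56.5% against 45.5% of all genes. The median log2 fold change was 0.05 over the members and -0.01 over all genes, and 48 of 69 members (69.6%) were higher in the knockout by any amount, against 48.3% of all genes. Bright genes outside the family lay between these: of the 89 other genes with a mean signal above 12, 58.4% were higher, with a median of 0.03, against 78.3% and 0.04 for the 23 members above 12. Of the 675 other genes above 10, 52.1% were higher, with a median of 0.0065, against 70.6% and 0.04 for the 34 members above 10. Small differences went with brightness too, since 70.6% of members above 10 but 41.2% of members below 9.5 were smaller than 0.1 in size. Above 10 this share was 51.9% for other genes. Above 12 it was 82.6% for members and 67.4% for other genes. The 95% interval of the log2 fold change contained 0 for all 69 members. It lay within 0.5 log2 units of 0, a change of 1.41 times, for 47 members, and within 1 log2 unit for all 69. A doubling or halving was thus outside the interval of every member for the row used, and other rows of a gene could differ. In bulk samples, fewer cells of a type and less RNA per cell cannot be told apart.

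**Figure D1:**
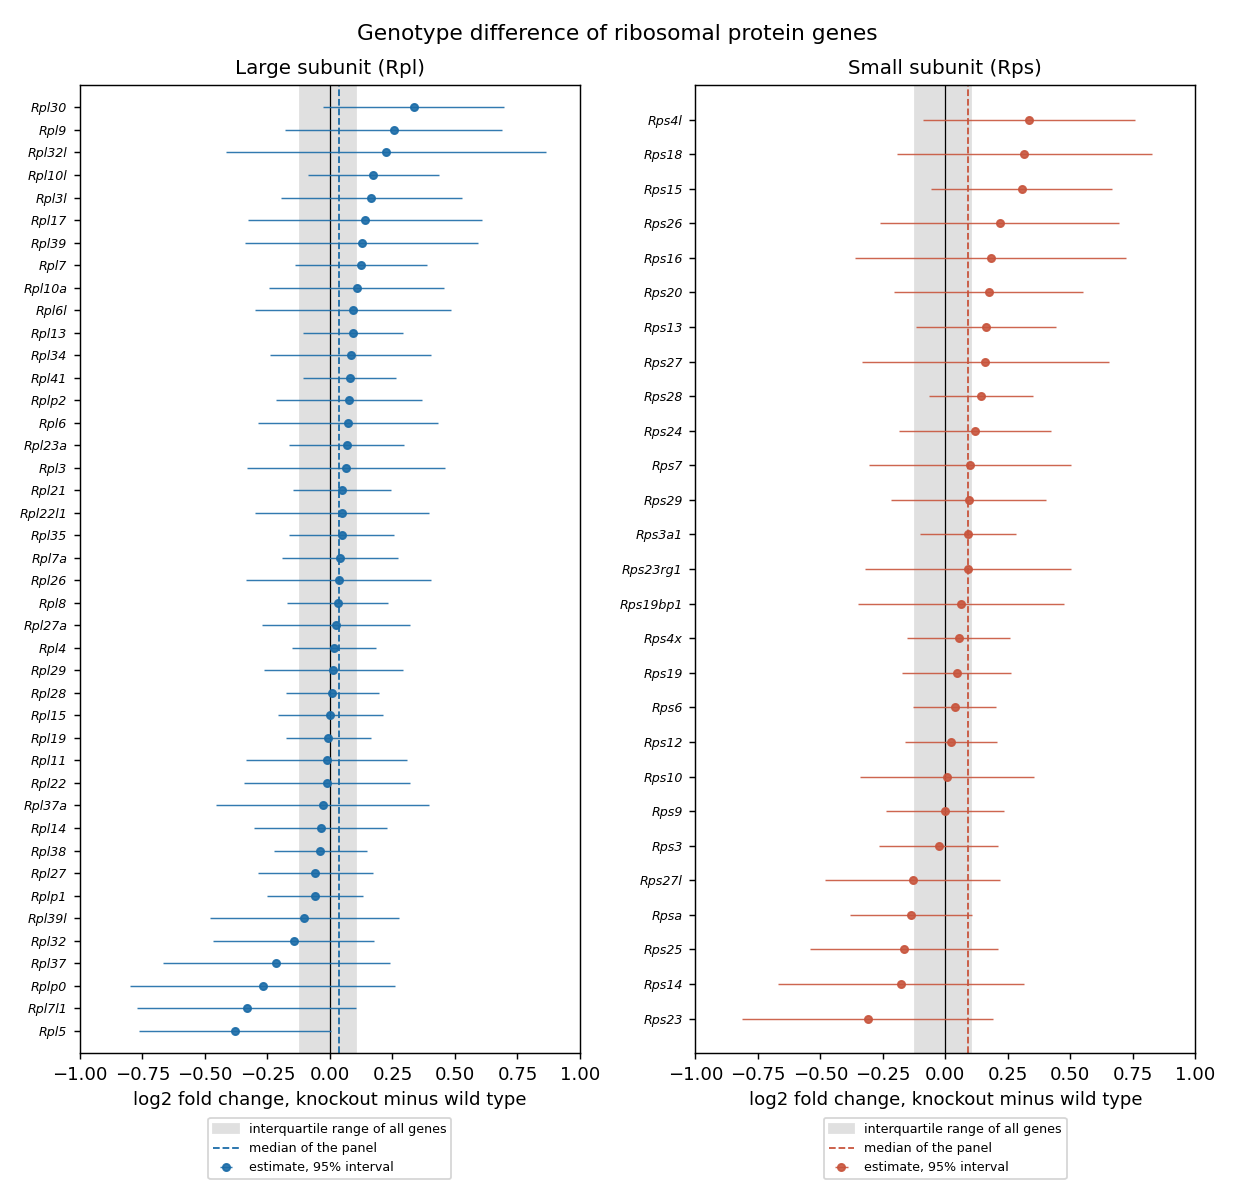
Log2 fold change of each ribosomal protein gene, knockout minus wild type, for the large subunit (left) and the small subunit (right), with limma's 95% interval. The dashed line is the panel's median (0.04 and 0.09), the grey band is the interquartile range of all genes, and every interval crosses 0.

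The small subunit genes had a slightly larger median difference than the large subunit genes. In the large subunit 28 of 42 genes were higher and 14 lower. Their median log2 fold change was 0.04, with quartiles of -0.02 and 0.09. In the small subunit 20 of 27 were higher and 7 lower, and the median was 0.09, with quartiles of 0.0033 and 0.16. The large subunit median minus the small subunit median was -0.05. Over the standard proteins alone the medians were 0.03 for 35 large and 0.09 for 23 small subunit genes. The medians and the gap moved with single arrays. Leaving out knockout replicate 2 gave a median over all members of 0.0150, and leaving out wild type replicate 2 gave 0.0142. Without wild type replicate 2 the large and small subunit medians were 0.0071 and 0.0248, without knockout replicate 2 the large subunit median was 0.00076, and without knockout replicate 3 the medians were 0.07 and 0.08, a large minus small difference of -0.0088. The processing moved them as well: the large subunit median was 0.0092 with quantile normalization, 0.0163 with median centring, 0.0235 with array weights and 0.0167 with dim genes left out, and large minus small was -0.0317 with the mean of rows. The median over all members was 0.0260 with quantile normalization, 0.0263 with median centring and 0.0309 with array weights.

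Array by array, wild type replicate 2 stood lowest, clearly so only for the small subunit genes. Each gene's signal was set against its own mean over the 6 arrays, and the median deviation of the large subunit genes was 0.0077, 0.04 and -0.04 in knockout replicates 1, 2 and 3 and -0.03, -0.04 and 0.02 in wild type replicates 1, 2 and 3. For the small subunit genes these medians were 0.03, 0.05 and -0.0067 in knockout cells and 0.0076, -0.11 and 0.0046 in wild type cells. Wild type replicate 2 was the lowest array for the small subunit. For the large subunit it was at -0.0389, hardly below knockout replicate 3 at -0.0363. Knockout replicate 2 was the highest array for both subunits, and the other arrays of the genotypes overlapped. Luminal marker means were 8.10, 8.16 and 7.86 in knockout replicates 1, 2 and 3 and 7.73, 8.73 and 8.49 in wild type replicates 1, 2 and 3. Wild type replicate 3, second highest in luminal markers, had a median deviation of 0.0185 over all members. A link between the luminal markers and the members was not tested. Matched by replicate number, the members' median difference, knockout minus wild type, was 0.02, 0.12 and -0.03 in replicates 1, 2 and 3, and for the small subunit it was 0.01, 0.18 and -0.0086.

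**Figure D2:**
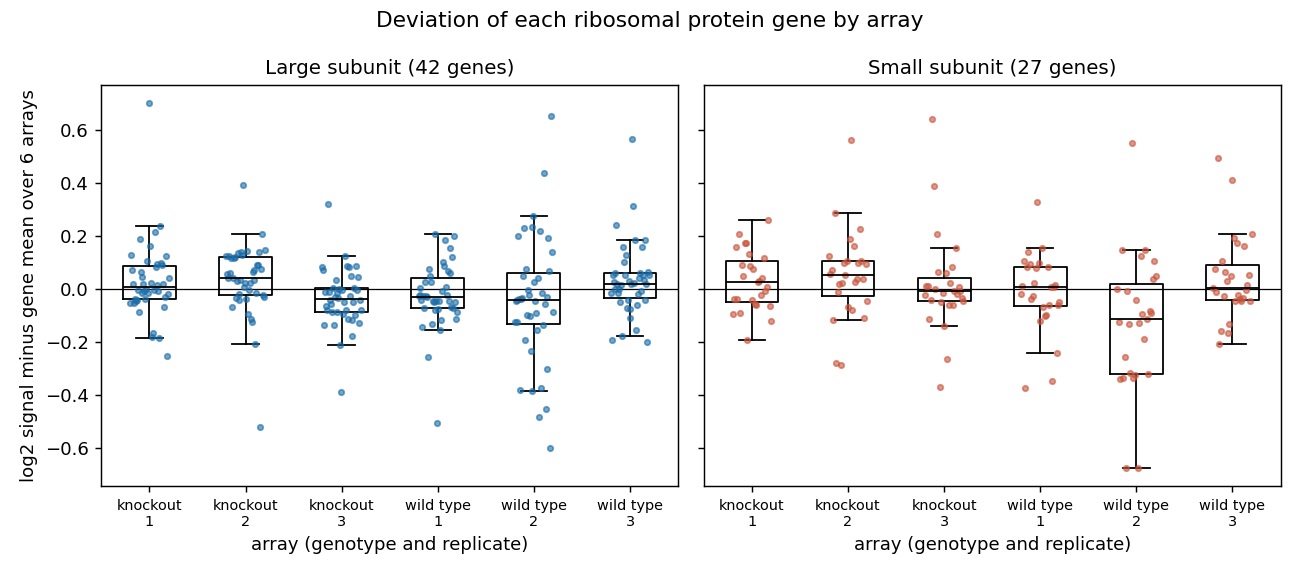
Log2 signal of each ribosomal protein gene minus its mean over 6 arrays, by array, for 42 large subunit genes (left) and 27 small subunit genes (right). Points are genes, boxes give the quartiles and the median, and whiskers reach the last point within 1.5 box lengths. The small subunit median of wild type replicate 2 is -0.11, the farthest of all from 0.

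Wild type replicate 2 was the lowest of the 6 arrays for 27 members (39.1%, against 24.3% of all genes) and the highest for 12 (17.4%, against 23.5% of all genes). Of the 89 other genes above 12 this array was lowest for 40.4% and highest for 13.5%, with a median deviation of -0.05. For the 23 members above 12 these values were 47.8%, 13% and -0.08. Above 10, it was lowest for 47.1% of members and 25.5% of the 675 other genes, with median deviations of -0.06 and 0.0084. For members below 9.5 the share was 32.4% and the median deviation -0.07. Wild type replicate 2 stood farthest from the mean of the other arrays for 29 members (42.0%, against 29.7% of all genes), below it for 20 and above it for 9. Genes low on this array include the most variable bright members. Rps18, a protein of the small subunit head, had signals of 10.52, 10.42 and 10.82 in knockout cells and 10.53, 9.76 and 10.54 in wild type cells. Rps26, which lies along the messenger's exit path in the small subunit, had 12.26, 12.37 and 12.24 in knockout cells and 12.34, 11.51 and 12.38 in wild type cells. Rpl9 had 11.80, 11.88 and 11.72 in knockout cells and 11.87, 11.07 and 11.69 in wild type cells. In each of these 3 genes wild type replicate 2 was far below all 5 other arrays on the row used. On none of their other, dimmer rows was it the lowest array, and on the Rpl9 row at 4.45 it was the highest. Their log2 fold changes were 0.32, 0.22 and 0.26 with all arrays (standard errors 0.225, 0.211 and 0.192) and 0.06, -0.07 and 0.02 without wild type replicate 2.

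Other members were high on the same array. Rplp0, the base of the ribosomal stalk that recruits translation factors, had 7.59, 7.82 and 7.72 in knockout cells and 7.79, 8.50 and 7.64 in wild type cells, a log2 fold change of -0.27 that was -0.0101 without wild type replicate 2. Rps23, a protein of the decoding centre, had 6.63, 6.91 and 6.45 in knockout cells and 6.90, 7.37 and 6.65 in wild type cells, a log2 fold change of -0.31 that was -0.11 without that array. The genotypes overlapped in both. On the other row of Rplp0, with a mean of 6.63, wild type replicate 2 was instead the lowest array, at 6.50. The stalk's other proteins gave small values, with log2 fold changes of -0.06 for Rplp1 and 0.08 for Rplp2.

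In 6 members all knockout arrays lay on the same side of all wild type arrays, 4 higher (Rpl30, Rpl10l, Rps28 and Rps19) and 2 lower (Rpl5 and Rpl7l1). Among all genes 3.63% lay above without overlap and 4.05% below, so that 6 of 69 (8.70%) is near the 7.68% of all genes, and the count shows nothing particular to the members. Rpl5 had the smallest p of the large subunit. Its signal was 6.84, 6.82 and 6.85 in knockout cells and 7.09, 7.46 and 7.09 in wild type cells, so that the knockout arrays lay close together and below. The difference was -0.38 ± 0.169 (log2 fold change ± standard error), or 0.769 times the wild type signal, with a limma p of 0.0519 before adjustment and 1.0 after. Its 95% interval ran from -0.76 to 0.0040, and leaving out wild type replicate 2 gave -0.25.

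Rpl30, a large subunit protein, had 5.10, 5.38 and 4.99 in knockout cells and 4.91, 4.60 and 4.95 in wild type cells. Its mean signal of 4.99 lay below the bound of the filter on dim genes, 5.32. The lowest knockout array and the highest wild type array differed by little. The difference was 0.34 ± 0.160 (adjusted p = 1.0, limma), against 0.23 when wild type replicate 2 was left out and 0.22 when knockout replicate 2 was. Rps28, a small subunit protein near the exit of the messenger channel, had 12.48, 12.62 and 12.48 in knockout cells and 12.36, 12.36 and 12.43 in wild type cells, a difference of 0.14 ± 0.0917 (adjusted p = 1.0, limma). Rps19, which is mutated in some patients with Diamond-Blackfan anaemia and is named here after its values were seen, had 11.86, 11.83 and 11.81 in knockout cells and 11.77, 11.80 and 11.78 in wild type cells, a difference of 0.05.

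Of the remaining small subunit genes with small p, Rps15 had 5.21, 5.29 and 4.97 in knockout cells and 5.09, 4.67 and 4.80 in wild type cells. Knockout replicate 3 lay within the wild type range, and the difference was 0.31 ± 0.159 (adjusted p = 1.0, limma). The mean signal of Rps15, 5.00, also lay below the bound of the filter on dim genes. Rps16, with the largest spread of the small subunit, had 5.42, 5.23 and 6.15 in knockout cells and 5.65, 5.26 and 5.35 in wild type cells. Its log2 fold change of 0.18 turned to -0.09 without knockout replicate 3, its single high array.

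**Figure D3:**
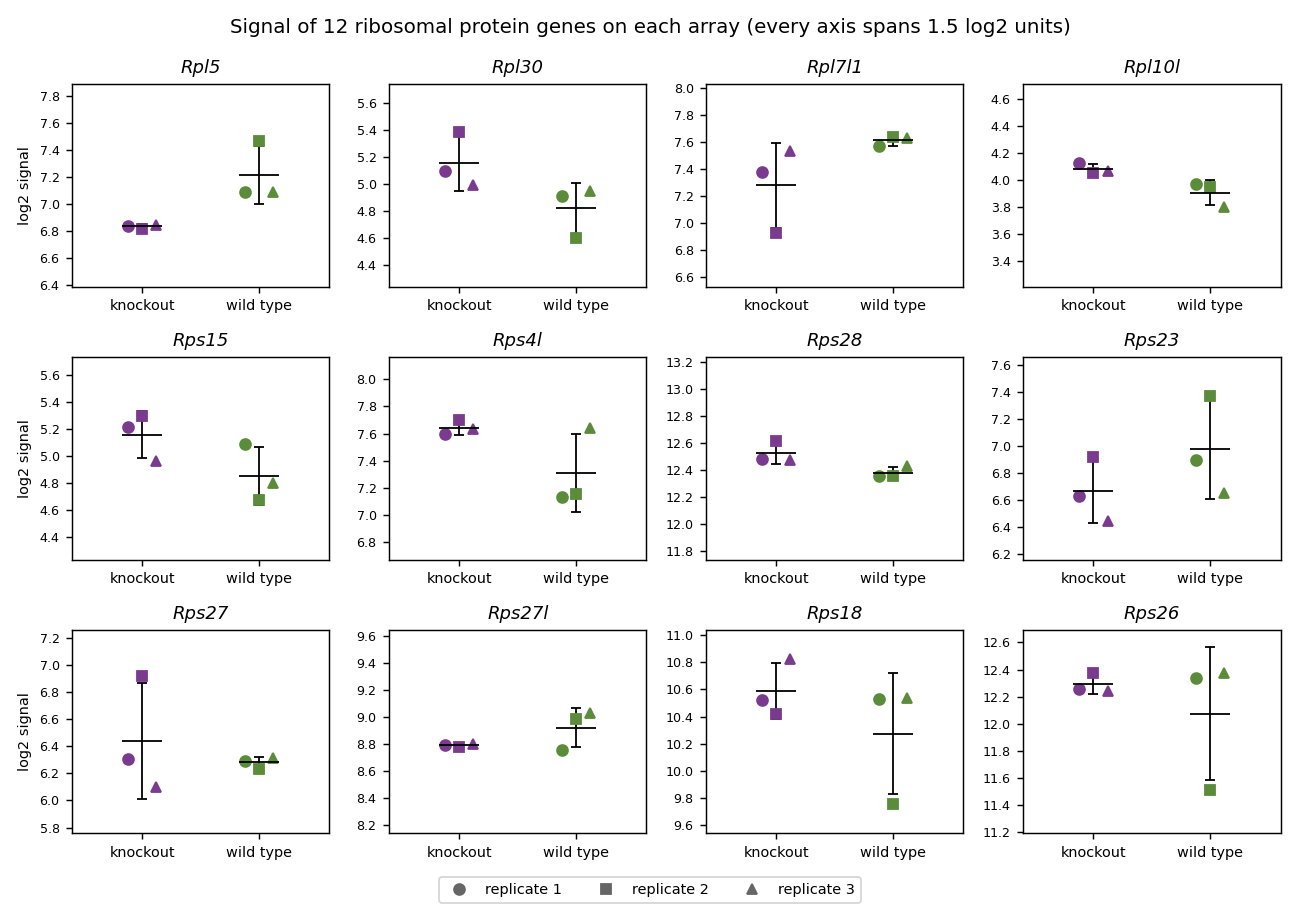
Log2 signal of 12 ribosomal protein genes on each array, knockout left and wild type right, with marker shapes for replicates 1 to 3 and the mean ± SD in black. Axes span the same number of log2 units. Rpl5 separates the genotypes, Rps27l is tight in the knockout, and Rps18 and Rps26 have a single low wild type array.

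Ribosomal proteins known to bind Mdm2 or to act on p53 were evenly divided between the genotypes. Of 16 listed, 14 were measured. The knockout was higher for 7 and lower for 7, the median log2 fold change was 0.01, and none passed the test. Rpl5 lay below, as given above, while Rpl11, its partner in the 5S particle, had 6.08, 6.05 and 5.87 in knockout cells and 6.01, 5.96 and 6.06 in wild type cells, a difference of -0.01 ± 0.142. Rps27l, whose gene is a direct p53 target in human cells, had 8.80, 8.78 and 8.80 in knockout cells and 8.76, 8.98 and 9.03 in wild type cells. Wild type replicate 1 lay below every knockout array, and the difference was -0.13 ± 0.154, with a 95% interval of -0.48 to 0.22 (adjusted p = 1.0, limma). Rps27, its near-identical paralog, had 6.30, 6.92 and 6.10 in knockout cells and 6.29, 6.23 and 6.32 in wild type cells, with the spread in the knockout, and a log2 fold change of 0.16 that was -0.08 without knockout replicate 2. The near-identity of these 2 genes means that probes may read both.

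Rps15 and Rps26 of the list are given above, and its remaining members follow here. Rpl26, which binds the p53 messenger in human cells, had a log2 fold change of 0.03, and Rpl6 had one of 0.07. Rps3, which also takes part in DNA repair, had a log2 fold change of -0.03, Rps7 of 0.10, Rps20 of 0.17 and Rps25 of -0.16. Rpl37 and Rps14 had values of -0.21 and -0.18 that rested on wild type replicate 3 and were 0.02 for both without it.

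Paralogs and other symbol matches differed widely in mean signal. Rpl6l was the brightest at 11.5, and Rps19bp1, Rps27l, Rps4l and Rpl7l1 had 8.99, 8.86, 7.48 and 7.45. Rpl10l, Rpl39l and Rpl3l, which are known mainly from testis and striated muscle, had mean signals of 3.99, 6.61 and 4.94 over the arrays, Rpl22l1 had 3.79 and Rpl32l 4.16. Rpl10l had 4.12, 4.05 and 4.06 in knockout cells and 3.97, 3.95 and 3.80 in wild type cells, a log2 fold change of 0.17 at a signal near the dim end of the array. Rpl7l1, a homolog of Rpl7 with a part in large subunit assembly in human cells, had 7.38, 6.93 and 7.53 in knockout cells and 7.57, 7.64 and 7.63 in wild type cells. The wild type arrays were tight and knockout replicate 2 was lowest, and the difference was -0.33 ± 0.193 (adjusted p = 1.0, limma).

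Rps4l, a paralog of the X-linked Rps4x, had 7.60, 7.70 and 7.63 in knockout cells and 7.13, 7.15 and 7.64 in wild type cells. Wild type replicate 3 lay with the knockout arrays, and the difference was 0.34 ± 0.187 (adjusted p = 1.0, limma). The difference of Rps4x was 0.05. Log2 fold changes of the other matches were -0.10 for Rpl39l, 0.16 for Rpl3l, 0.05 for Rpl22l1, 0.23 for Rpl32l, 0.09 for Rpl6l, 0.09 for Rps23rg1 and 0.06 for Rps19bp1, which encodes a protein that binds Rps19 and is no ribosomal protein. Fau, which encodes a fusion of a ubiquitin-like protein with a small subunit protein and falls outside the symbol rule, had 12.56, 12.70 and 12.53 in knockout cells and 12.57, 12.39 and 12.52 in wild type cells, a log2 fold change of 0.10.

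The signals of the members differed widely. Over all arrays the members' mean signals ran from 3.79 to 13.5 with a median of 9.65, against a median of 5.78 over all genes. Only the brightest row of each gene counts here, and 25 of 69 members had several rows, against 1082 of 22180 genes. This choice may therefore raise the members' levels more than those of all genes. Above 10 lay 34 members, 20 of the large and 14 of the small subunit, and below 9.5 lay 34, with Rpl34 at 9.65 between them. These bounds are round values for description only, since the widest gap between neighbouring members, 0.90, lay higher, between Rps18 at 10.4 and Rpl29 at 11.3. Of the 25 members with several rows, all but Rpl3, Rplp0 and Rps20 lay above 10, so the classes also differed in row number. The highest signals were 13.5 for Rplp1, 13.4 for Rps12, 13.4 for Rps6, 13.3 for Rpl19, 13.2 for Rpl41 and 12.8 for Rps3a1, while Rps29, Rps15 and Rplp2, which are standard proteins too, read 5.43, 5.00 and 4.92. Log2 fold changes of the brightest were -0.06 for Rplp1, 0.02 for Rps12, 0.04 for Rps6, a substrate of S6 kinase, -0.0062 for Rpl19, 0.08 for Rpl41 and 0.09 for Rps3a1, and Rps29 had 0.09. A row's signal depends on its probes, so these values do not rank the amounts of the messengers.

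Genes with more than 1 row show how large that dependence is. Of the members, 25 had several rows under the same single symbol, 66 rows in all, and only the row of highest mean was used. The highest and lowest rows of a gene differed by a median of 4.98 log2 units and by up to 9.02, and by more than 5 for 12 genes. Rps3a1 had rows at 12.8 and 3.82, and Rpl35 at 12.8, 5.60 and 4.36, both named for their wide gaps. The rows of a gene gave the same sign of genotype difference for 15 of the 25 genes. These include Rpl23a, whose rows held identical values and so could not differ in sign. For Rps28 the lower row, at 7.40, had a difference of -0.0067. For Rps19 the lower row read 6.07, 6.07 and 6.14 in knockout cells and 6.24, 6.51 and 6.47 in wild type cells, a difference of -0.31, without overlap and opposite to the bright row. The symbols of 3 genes, Rpl23a, Rps12 and Rps19, stood on rows with identical values.

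**Figure D4:**
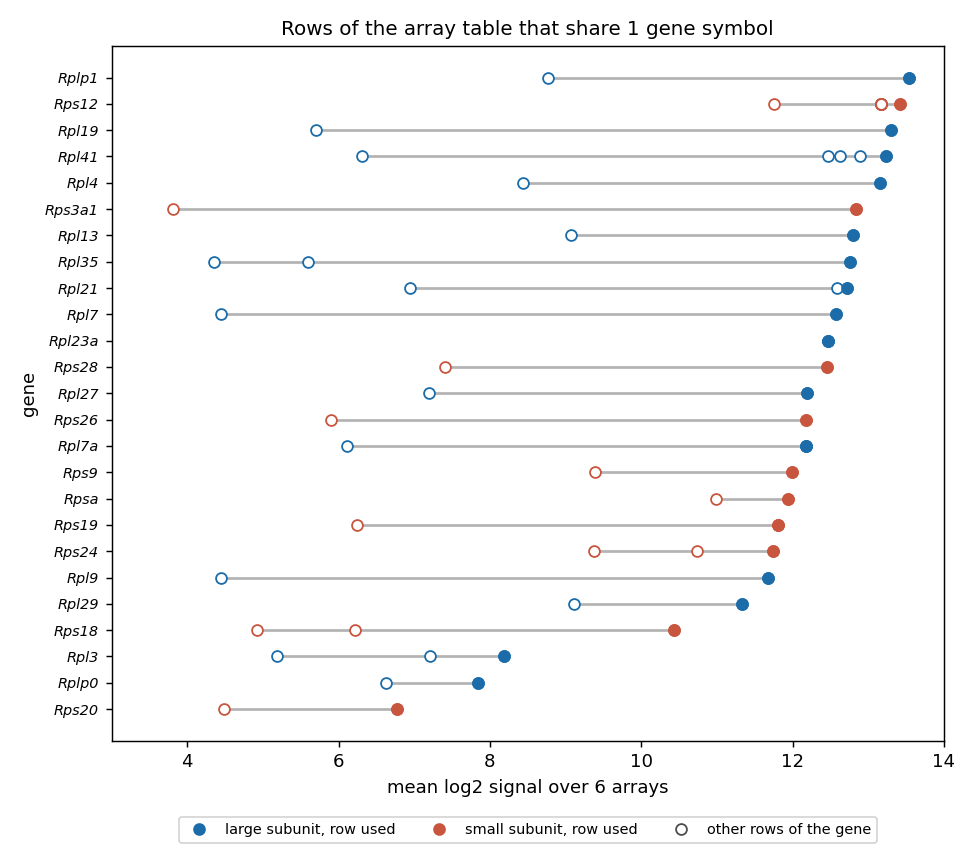
Mean log2 signal over 6 arrays of each row, for the 25 ribosomal protein genes with more than 1 row, with filled points for the row used and open points for the others. The gap between rows of the same gene reaches 9.02 log2 units.

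Spread between replicates was small for bright members. The pooled within-genotype SD had a median of 0.131 over the members and 0.207 over all genes. It was 0.0888 over the 34 members above 10 and 0.195 over the 34 below 9.5, while the 675 other genes above 10 had a median of 0.194 and the 89 other genes above 12 one of 0.125. The steadiest members were Rps19 and Rpl4, with pooled SDs of 0.021 and 0.024. The least steady was Rpl32l, at 0.476. Wild type SDs exceeded knockout SDs in 44 of 69 members (63.8%), close to the 61.5% of all genes, with medians of 0.0811 in knockout and 0.130 in wild type cells. The 95% interval of a log2 fold change reached a median of 0.22 to either side for members above 10 and 0.38 for members below 9.5.

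Genes that build and regulate ribosomes had median differences near 0. Of 38 measured ribosome assembly genes 17 were higher and 21 lower, the median log2 fold change was -0.01, and none passed the test. In smallest p they were led by Gnl3 (nucleostemin), with a log2 fold change of 0.35, Polr1b, the second subunit of RNA polymerase I, with -0.22, and Eif6, which keeps large subunits from joining small ones too early, with -0.19. Of 29 measured translation factors 15 were higher and 14 lower, with a median of 0.01 and none past the test. Among them Tpt1, whose messenger is also known to carry a pyrimidine tract, had 11.55, 11.54 and 11.58 in knockout cells and 11.42, 10.69 and 11.53 in wild type cells, lowest on wild type replicate 2, which was the lowest array for 7 and the highest for 8 of the 29 factors. Eif3d had a log2 fold change of -0.25 and Eif5 of 0.23.

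Of 17 measured growth control genes, from the mTOR and Myc pathways, 7 were higher and 10 lower, with a median of -0.02 and none past the test. The 3 of smallest p were Mycn and Myc, transcription factors that drive ribosome production, and their partner Max, with log2 fold changes of 0.30, 0.35 and 0.26 (standard errors 0.151, 0.206 and 0.159). Myc averaged 10.1 ± 0.298 in knockout cells and 9.77 ± 0.290 in wild type cells (SD, n = 3 each), and its arrays overlapped between the genotypes. Genes of the mitochondrial ribosome, a list added after the data were seen, had 16 of 71 higher and 55 lower, with a median of -0.10 and none past the test. Their median deviations were -0.11, 0.03 and -0.03 in knockout replicates 1, 2 and 3 and -0.25, 0.17 and 0.21 in wild type replicates 1, 2 and 3, so that the genotypes overlapped. Ribosomal protein pseudogene symbols, which the rule leaves out, gave 10 higher and 5 lower of 15, with a median of 0.06.

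**Figure D5:**
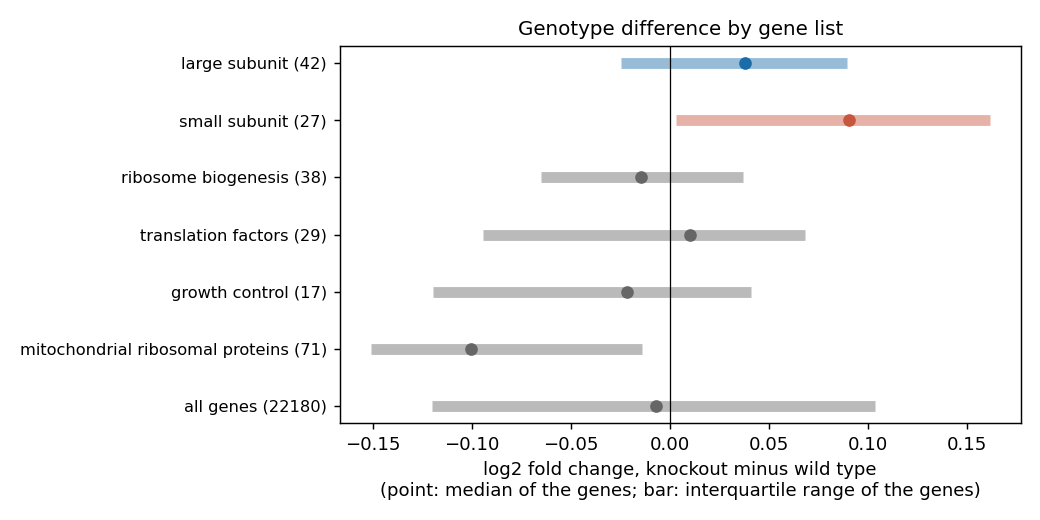
Log2 fold change, knockout minus wild type, by gene list, with the number of genes in brackets, the median as a point and the interquartile range as a bar. The medians of the large and small subunit (0.04 and 0.09) lie above that of all genes (-0.01) and that of mitochondrial ribosomal proteins (-0.10) below.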

How the data were processed

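The table the authors deposited holds log2 signals, 1 per probe set and array, made with RMA (background correction, normalization between arrays, summary of probes) and Transcriptome Analysis Console 4.0, per the submitters' processing notes. No array has a read depth, and the 3 arrays per genotype limit the precision. Of 41345 rows, 23521 had exactly 1 gene symbol in the platform annotation. Per gene the row of highest mean over 6 arrays was kept, which gave 22180 genes. Genotypes were compared over all genes with limma 3.58.1 in R 4.3.3 (lmFit and eBayes, prior variance following the mean signal, two-sided tests, Benjamini-Hochberg adjustment, threshold 0.05), and fold changes are knockout minus wild type. The fit was tested on simulated data. Same-numbered arrays deviated together from their group means, with r of 0.121, 0.25 and 0.127 across genes, so the replicate number was also run as a block. Wild type replicate 1 correlated as well with knockout replicate 3 (0.13), and no label says what a number shares.

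The members and lists were chosen with earlier results of these data known. Within them, named genes were, per subunit, the 4 of smallest p, the 3 highest, 3 lowest and 3 most variable, all paralogs and other symbol matches, Fau, the Mdm2 list, and the 3 of smallest p in each pathway list. Genes named for overlap, rows or single arrays were chosen after their values were seen. Alternatives used a constant prior, weighted arrays, quantile normalization, median centring, a filter on dim genes, the mean of rows, the replicate block, other member lists and a looser threshold, or left out each array. Erythroid markers, Krt5 and other listed genes without a row of their own were not analysed here.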

Additional observations from a re-analysis of the deposited data

How the results depend on the processing

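No alternative called a gene: 0 of all genes and 0 members passed with limma under each setting run, including an adjusted p under 0.1, against 736 genes and 0 members at an unadjusted p under 0.05. That count was 1970 genes and 3 members with array weights, 1788 and 3 without wild type replicate 1, and 1112 and 0 with replicate block, which left all fold changes as they were and changed no call. Leaving out each array, the members' median log2 fold change lay between 0.0142 and 0.0730, the large subunit median between 0.00076 (without knockout replicate 2) and 0.0664, the small subunit median between 0.0248 (without wild type replicate 2) and 0.0974, and large minus small between -0.0636 and -0.0088 (without knockout replicate 3). Median centring gave 0.03 and 43 of 69 members higher, as against 48, quantile normalization 0.03 and 43, and leaving out wild type replicate 2 or knockout replicate 2 gave 41 and 38. The sign of a named gene turned in 31 of 616 refits, for 20 genes, none of them called, and the cause was not tested. With array weights the values were -0.0371 for Rps12, 0.0375 for Rpl39l, -0.0053 for Rpl6l and 0.0025 for Rps3. With quantile normalization they were -0.0224 for Rps12 and -0.0170 for Rps6, and with the mean of rows 0.0020 for Rplp1. Leaving out each array, the ranges were -0.0284 to 0.0127 for Rpl19, -0.0684 to 0.176 for Rpl22l1, -0.0693 to 0.475 for Rpl32l, -0.0261 to 0.221 for Rps19bp1, -0.0301 to 0.148 for Rpl6, -0.0075 to 0.18 for Rps7, -0.0328 to 0.0671 for Rps12, -0.0453 to 0.110 for Rpl26, -0.0808 to 0.333 for Rps27, -0.0946 to 0.366 for Rps16, -0.0520 to 0.0517 for Rpl11, -0.0541 to 0.278 for Rps23rg1, -0.0658 to 0.368 for Rps26, -0.11 to 0.20 for Rpl6l, -0.0643 to 0.0397 for Rps3, -0.345 to 0.0151 for Rpl37 and -0.409 to 0.0242 for Rps14. Intervals were wider for dim than for bright members, and 9 members were left out by the filter on dim genes.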
